A study of Macaca mulatta with 10 samples.

Results

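The 5 genes described here encode ATP-binding cassette (ABC) transporters: ABCC2 and ABCG2, which pump drugs and conjugated compounds out of cells, and ABCA1, ABCG5 and ABCG8, which carry sterols. The members are all probe sets that the platform annotation assigns to 1 of these genes, and they came to 7 of the 44210 tested probe sets and 5 of the 13191 measured genes. ABCC2 and ABCG2 had 2 probe sets each and the sterol carriers had 1 each. Measured values played no part in the rule, although the members were chosen by gene name with earlier results of these data known.

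The RNA came from the rhesus embryonic stem (ES) cell line ORMES6 and was hybridised to 10 Affymetrix rhesus macaque arrays. The ES cells were kept on MEF feeders (mouse embryonic fibroblasts) with bFGF and Knockout Serum Replacement, and formation of hepatic foci was induced by co-culture with hESdF, which the series title describes as fibroblast-like cells derived from human ES cells. The 5 groups have 2 arrays each: ES cells as the control, whole cultures at in vitro differentiation stage 2 (IVDS2), colony centres at that stage, where the foci lie (IVDS2-C), colony edges at that stage (IVDS2-P), and cells at stage 3 (IVDS3). All groups are 1 cell line, so they show no variation between animals. The labels do not say whether feeder or co-cultured cells were removed before RNA extraction, or whether repeats came from separate cultures, so a p-value measures only the spread between these samples, which may be technical. Fewer cells of a type and less RNA per cell cannot be told apart in such bulk samples.

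ABC transporters use ATP to move substrates across membranes, and some of them face the bile canaliculus, the narrow space between hepatocytes into which bile is secreted. ABCC2 (MRP2) exports conjugated bilirubin and other organic anions into bile, and ABCG2 (BCRP) exports urate, sulfated conjugates and drugs and marks several kinds of stem cell. ABCA1 loads cholesterol and phospholipid onto apolipoprotein A-I, the first step of HDL formation, while ABCG5 and ABCG8 are half-transporters that pair to excrete cholesterol and plant sterols into bile and the gut. ABCA1, ABCG5 and ABCG8 are targets of the oxysterol-sensing LXR nuclear receptors.

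Values below are log2 units from a probe set's own median over the 10 arrays, since the deposited values were centred in that way. They show how a probe set differed between arrays, and give no absolute level and no order between genes. A probe set was called at an adjusted p under 0.05 in limma (Benjamini-Hochberg over all 44210 probe sets), and a difference is given with its standard error (SE) and n = 2 arrays per group. The 4 comparisons with ES cells share the ES arrays and are not independent of each other. Over all probe sets the ES replicates were the least alike. The standard deviation of the difference between replicates was 0.40 for ES cells and 0.24 to 0.29 in the other groups. The fit shares its estimate of the spread over all groups, so an SE against ES cells may be too small.

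ABCC2 was highest in ES cells and lower in every differentiated group. On the probe set MmugDNA.19032.1.S1_s_at, the ES arrays read 2.83 and 2.75, the IVDS2-P arrays 0.80 and 0.35, the IVDS2 arrays -0.06 and -0.12, the IVDS2-C arrays -0.38 and -0.36, and the IVDS3 arrays -0.23 and 0.06. On the second probe set, Mmu.10581.1.S2_at, the same groups read 2.26 and 1.86, then 0.57 and 0.23, then 0.08 and -0.20, then -0.31 and -0.56, and then -0.13 and -0.08. Both ES arrays lay far above all 8 others on both probe sets, and the IVDS2-P arrays came next. The range over the 10 arrays was 3.21 and 2.82, at least as large as for 96.6% and 95.1% of all probe sets. The probe sets followed each other with a Pearson r of 0.99 over the 10 arrays, which share the same RNA.

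**Figure D1:**
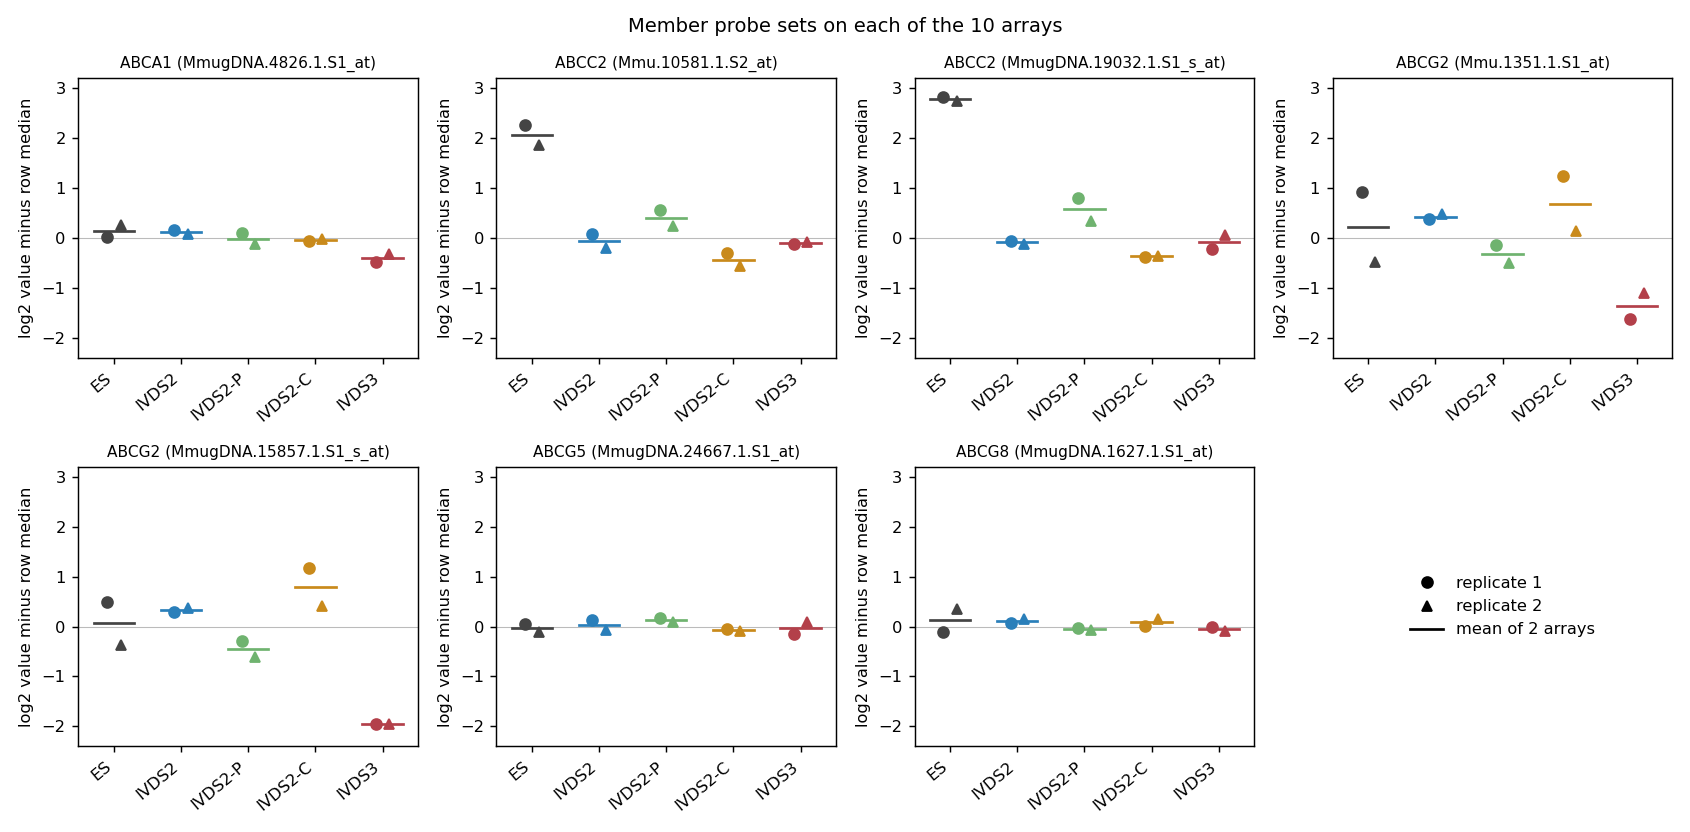
Values of the 7 member probe sets on each of the 10 arrays, in log2 units from the probe set's median, with 1 panel per probe set, a circle for replicate 1, a triangle for replicate 2 and a line for the mean of each group of 2. The ES arrays stand above the rest for both ABCC2 probe sets, the IVDS3 arrays below the rest for both ABCG2 probe sets and ABCA1, and ABCG5 and ABCG8 stay within 0.33 and 0.45 over all arrays.

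Against ES cells, MmugDNA.19032.1.S1_s_at fell by 2.88 ± 0.17 (SE) at IVDS2 (7.36-fold lower, adjusted p = 4.58e-05 in limma). The difference was -3.16 ± 0.17 in IVDS2-C (8.93-fold lower, adjusted p = 1.29e-05 in limma) and -2.22 ± 0.17 in IVDS2-P (4.64-fold lower, adjusted p = 0.000324 in limma). At IVDS3 the probe set had dropped by 2.87 ± 0.17 (7.31-fold lower, adjusted p = 2.94e-06 in limma). Mmu.10581.1.S2_at gave smaller differences, with falls of 4.35-fold at IVDS2, 5.63-fold in IVDS2-C, 3.16-fold in IVDS2-P and 4.48-fold at IVDS3 (adjusted p = 0.000268, 4.93e-05, 0.00142 and 2.34e-05 in limma). These 8 calls were kept under each of the 17 alternative settings, leaving out any of the 10 arrays included.

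ABCC2 made up all of the members called at stage 2 against ES cells: 2 of 7 probe sets at IVDS2, where 8.71% of all probe sets were called, 2 of 7 in IVDS2-C, where 21.5% were called, and 2 of 7 in IVDS2-P, where 7.55% were called. At IVDS3, 5 of the 7 member probe sets were called, all of them lower, beside 37.8% of all probe sets in both directions and 19.9% in that direction. The median difference of the members there was -1.59, against -0.11 over all probe sets. The 5 count probe sets of only 3 genes, ABCC2, ABCG2 and ABCA1, and the count was 3 without IVDS3 replicate 1.

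The colony centre had less ABCC2 than the periphery. The values of -0.38 and -0.36 in IVDS2-C against 0.80 and 0.35 in IVDS2-P gave a difference of -0.94 ± 0.17 (1.92-fold lower, adjusted p = 0.0119 in limma) on MmugDNA.19032.1.S1_s_at, and -0.83 ± 0.18 (1.78-fold lower, adjusted p = 0.0304 in limma) on Mmu.10581.1.S2_at. In this comparison 3 of the 7 members were called, 1 higher and 2 lower, where 5.84% of all probe sets were called. Without IVDS2-C replicate 2 or IVDS2-P replicate 1 the calls of both ABCC2 probe sets were lost (adjusted p = 0.0865 and 0.0943 in limma for the s_at probe set, 0.264 and 0.21 for the other). The call of Mmu.10581.1.S2_at was also lost without IVDS2-P replicate 2 (0.053), without IVDS3 replicate 1 (0.0565) or 2 (0.0565), and with only the 4 arrays compared (0.0587).

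Between the whole stage 2 culture and stage 3 no change in ABCC2 was detected. IVDS3 differed from IVDS2 by 0.01 ± 0.17 on MmugDNA.19032.1.S1_s_at (adjusted p = 0.977 in limma, 95% confidence interval -0.37 to 0.38) and by -0.04 ± 0.18 on Mmu.10581.1.S2_at (adjusted p = 0.893 in limma, 95% confidence interval -0.46 to 0.37). In 4 pairs of groups added after the values were seen, the ABCC2 probe sets were not called in the centre or the periphery against the whole IVDS2 culture (adjusted p from 0.126 to 0.431 in limma), where 3.49% and 0.95% of all probe sets were called. IVDS3 was lower than IVDS2-P on the s_at probe set (-0.66 ± 0.17, adjusted p = 0.0143 in limma) while the other was not called (-0.50, adjusted p = 0.0662), and the mean of both was lower by a call (-0.58 ± 0.16, adjusted p = 0.0157 in limma over genes). The order of ABCC2 was thus ES cells, IVDS2-P, and then IVDS2, IVDS3 and IVDS2-C, with IVDS2-P and IVDS2, and the last 3 groups among themselves, not separated by a call.

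ABCG2 followed another course, with its lowest values at stage 3. On MmugDNA.15857.1.S1_s_at the IVDS3 arrays read -1.96 and -1.95, the ES arrays 0.49 and -0.36, the IVDS2 arrays 0.28 and 0.38, the IVDS2-C arrays 1.18 and 0.41, and the IVDS2-P arrays -0.28 and -0.61. On Mmu.1351.1.S1_at the groups read, in that order, -1.63 and -1.10, then 0.93 and -0.48, then 0.38 and 0.48, then 1.24 and 0.13, and then -0.13 and -0.51. The IVDS3 arrays lay below all 8 others on both probe sets, while the other groups partly overlapped. The ES replicates differed by 0.86 and 1.40 and the IVDS2-C replicates by 0.77 and 1.11, and the residual standard deviations, 0.38 and 0.60, stood above the median of 0.16 over all probe sets. The ABCG2 probe sets had an r of 0.96 over the 10 arrays.

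ABCG2 fell between stage 2 and stage 3. From IVDS2 to IVDS3 the difference was -2.28 ± 0.30 on MmugDNA.15857.1.S1_s_at (4.87-fold lower, adjusted p = 0.000444 in limma) and -1.79 ± 0.45 on Mmu.1351.1.S1_at (3.47-fold lower, adjusted p = 0.0154 in limma). Against ES cells the differences at IVDS3 were -2.02 ± 0.30 (4.06-fold lower, adjusted p = 0.000575 in limma) and -1.59 ± 0.45 (3.01-fold lower, adjusted p = 0.0204 in limma). The s_at probe set kept both calls under all 17 alternatives. The other lost its call against ES cells without ES replicate 1 (adjusted p = 0.117 in limma, where the difference was -0.89) or IVDS3 replicate 1 (0.127). Against IVDS2 it lost the call without IVDS2 replicate 1 (0.0563), IVDS2 replicate 2 (0.0755) or IVDS3 replicate 1 (0.111).

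In the comparison of IVDS3 with IVDS2, 3 of the 7 members were called, all lower, where 28.6% of all probe sets were called and 15% were lower; the count was 1 without IVDS2 replicate 1, IVDS2 replicate 2 or IVDS3 replicate 1. In the added pairs, IVDS3 was 6.72-fold lower than IVDS2-C on the s_at probe set of ABCG2 (adjusted p = 0.000334 in limma) and 4.15-fold lower on the other (0.0144). Against IVDS2-P the s_at probe set differed by -1.51 ± 0.30 (adjusted p = 0.00398 in limma) and the other by -1.05 ± 0.45 (0.119). The mean of both was lower there by a call (-1.28 ± 0.37, adjusted p = 0.0225 in limma over genes). Of the members, 2 of 7 were called in each of these pairs, where 14.9% and 30.9% of all probe sets were called.

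At stage 2 ABCG2 was not called against ES cells in any group. The values for the s_at probe set were 0.26 ± 0.30 at IVDS2 (adjusted p = 0.682 in limma), 0.73 ± 0.30 in IVDS2-C (0.118) and -0.51 ± 0.30 in IVDS2-P (0.321), and without ES replicate 1 the IVDS2-C difference was 1.15 and was called (0.0229). The centre was above the periphery by 1.24 ± 0.30 on that probe set (2.36-fold higher, adjusted p = 0.0429 in limma), and the values on the other were 1.01 ± 0.45 (0.253). The call on the s_at probe set held in 8 of 17 alternatives and was lost without IVDS2-P replicate 2 (adjusted p = 0.207 in limma). It was also lost without IVDS2 replicate 1 or 2 (0.0622 in each), IVDS2-C replicate 1 (0.153), IVDS2-P replicate 1 (0.132), IVDS3 replicate 1 or 2 (0.0757 in each), with only the 4 arrays compared (0.0708), or with the mean of both probe sets (0.095). In the centre against the periphery ABCC2 was thus called lower and ABCG2 higher, and each of these calls was lost without at least 1 of the arrays named above. From high to low the ABCG2 means on the s_at probe set were 0.79 in IVDS2-C, 0.33 at IVDS2, 0.07 in ES cells, -0.45 in IVDS2-P and -1.95 at IVDS3, and of these neighbours only the last pair was separated by a call.

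**Figure D2:**
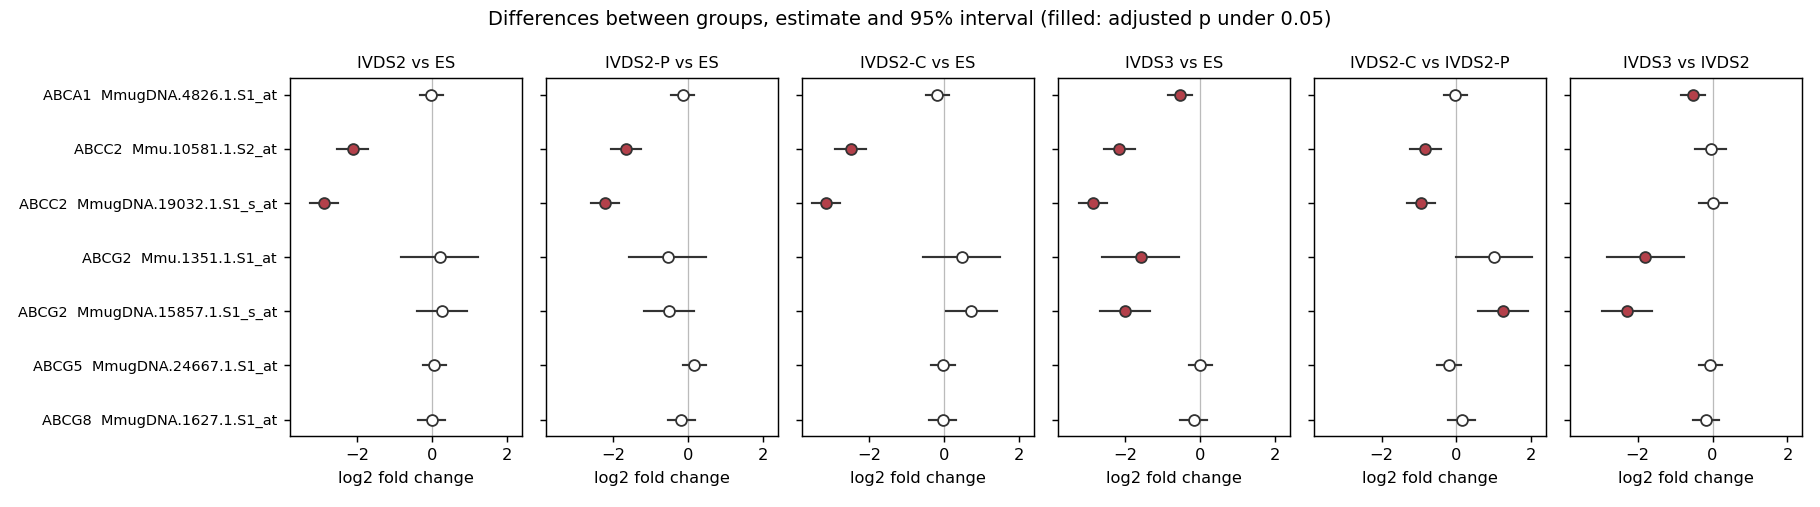
Log2 difference of each member probe set in the 6 planned comparisons, with 95% confidence intervals from limma, filled points for called probe sets and open points for the rest. Both ABCC2 probe sets lie below 0 in all 4 comparisons with ES cells and at 0.01 and -0.04 between IVDS3 and IVDS2, where both ABCG2 probe sets lie at -2.28 and -1.79.

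ABCA1 was slightly lower at stage 3. The ES arrays read 0.02 and 0.25, the IVDS2 arrays 0.16 and 0.08, the IVDS2-P arrays 0.10 and -0.13, the IVDS2-C arrays -0.07 and -0.02, and the IVDS3 arrays -0.48 and -0.33. The IVDS3 arrays were the lowest. How many of all probe sets set 1 group apart from the rest in this way, as with ABCC2 and ABCG2 above, was not counted. ABCA1 fell by 0.54 ± 0.14 against ES cells (1.45-fold lower, adjusted p = 0.0122 in limma) and by 0.52 ± 0.14 against IVDS2 (1.44-fold lower, adjusted p = 0.0185 in limma). Its range, 0.73, was at least as large as that of 48.6% of all probe sets. The call against ES cells was lost without ES replicate 2 (adjusted p = 0.0601 in limma) or IVDS3 replicate 1 (0.0877) and with only the 4 arrays compared (0.0515), and that against IVDS2 without IVDS2 replicate 1 (0.0908), IVDS2 replicate 2 (0.0646) or IVDS3 replicate 1 (0.126). No stage 2 group was called against ES cells, with differences of -0.02 ± 0.14 at IVDS2, -0.18 ± 0.14 in IVDS2-C and -0.15 ± 0.14 in IVDS2-P (adjusted p from 0.387 to 0.966 in limma). Over probe sets, IVDS3 did not differ from IVDS2-C or IVDS2-P by a call either (adjusted p = 0.128 and 0.058 in limma). In the fit over genes, which uses the same 1 probe set of ABCA1, IVDS3 was called lower than IVDS2-P (-0.39 ± 0.13, adjusted p = 0.0356 in limma). The difference from IVDS2-C was not called there (adjusted p = 0.0804 in limma).

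ABCG5 and ABCG8, the sterol half-transporters, moved little on these arrays. ABCG5 read 0.05 and -0.12 in ES cells, 0.14 and -0.08 at IVDS2, -0.05 and -0.08 in IVDS2-C, 0.18 and 0.08 in IVDS2-P, and -0.15 and 0.09 at IVDS3. ABCG8 read -0.10 and 0.35 in ES cells, 0.07 and 0.16 at IVDS2, 0.01 and 0.16 in IVDS2-C, -0.04 and -0.07 in IVDS2-P, and -0.01 and -0.10 at IVDS3. The ES arrays overlapped every other group for both genes, except IVDS2-P for ABCG5. The ranges of 0.33 and 0.45 were at least as large as those of 5.03% and 17.4% of all probe sets, and neither gene was called in any of the 10 comparisons, with unadjusted p-values in limma of at least 0.185. IVDS3 differed from ES cells by 0.00 ± 0.14 for ABCG5 (95% confidence interval -0.31 to 0.31, adjusted p = 0.996 in limma) and by -0.18 ± 0.16 for ABCG8 (-0.54 to 0.17, adjusted p = 0.394 in limma). Without ES replicate 1, which read 0.45 below ES replicate 2, the ABCG8 difference was -0.41 and was called (adjusted p = 0.0405 in limma); without ES replicate 2 it was 0.04. The values do not tell whether such probe sets read a steady level or lay near background, since absolute levels were not kept. The genes lie side by side on chromosome 13 in the RefSeq table of the macaque assembly T2T-MMU8v2.0, which was used for names and neighbours, and their values over the 10 arrays had an r of -0.56.

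The genes most like each called member were taken as those with the highest Pearson r at gene level over the 10 arrays, which is a description with no test. The member itself and genes whose symbol is only a locus, MGC or open reading frame number were not searched. For the s_at probe set of ABCC2 they were NR5A2 (r = 0.986), a nuclear receptor of pluripotent cells, liver and pancreas, SNAPC5 (0.986), a subunit of the complex that activates small nuclear RNA genes, and HAPSTR2 (0.983). For the other ABCC2 probe set they were ZNF229 (0.989), a zinc finger gene, HOOK1 (0.989), a microtubule-linked adaptor of vesicle transport, and SNAPC5 (0.984). Of the genes searched, 53 and 50 had an r over 0.95 with the respective ABCC2 probe sets. NR5A2 read 2.49 and 2.68 in ES cells, 0.98 and 0.26 in IVDS2-P, and between -0.50 and 0.16 on the other 6 arrays. Its differences from ES cells were -2.66 ± 0.24 at IVDS2, -2.92 ± 0.24 in IVDS2-C, -1.96 ± 0.24 in IVDS2-P and -2.87 ± 0.24 at IVDS3 (adjusted p of at most 0.00227 in limma over genes). NR5A2 is named here for its likeness to ABCC2 on these same arrays. Its calls therefore follow largely from that choice and are no separate evidence.

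ABCG2 and ABCA1 had fewer close companions. Among the genes searched, TP53I3, a p53-induced quinone oxidoreductase, was the 1 with an r over 0.95 to the s_at probe set of ABCG2 (0.956). It was followed by TCF7L2 (0.94), a transcription factor of WNT signalling, and the dynein gene DNAH17 (0.924). The other ABCG2 probe set had no searched gene over 0.95, and its closest were SS18 (0.916), a chromatin remodelling subunit, FAM50A (0.907) and SNX12 (0.891). TP53I3 fell by 0.96 ± 0.11 at IVDS3 against ES cells (adjusted p = 0.000101 in limma over genes) and was above the periphery in the centre (0.49 ± 0.11, adjusted p = 0.0251). Since TP53I3 was picked for its likeness to ABCG2 on these arrays, its calls are no separate evidence either. ABCA1 had 3 searched genes over 0.95: ZG16 (0.96), a lectin-like secretory granule protein, SEMA4C (0.953), a semaphorin, and EFTUD2 (0.952), a spliceosomal GTPase. The sterol carriers ABCG5 and ABCG8 had no call against ES cells, so no companions were taken for them.

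**Figure D3:**
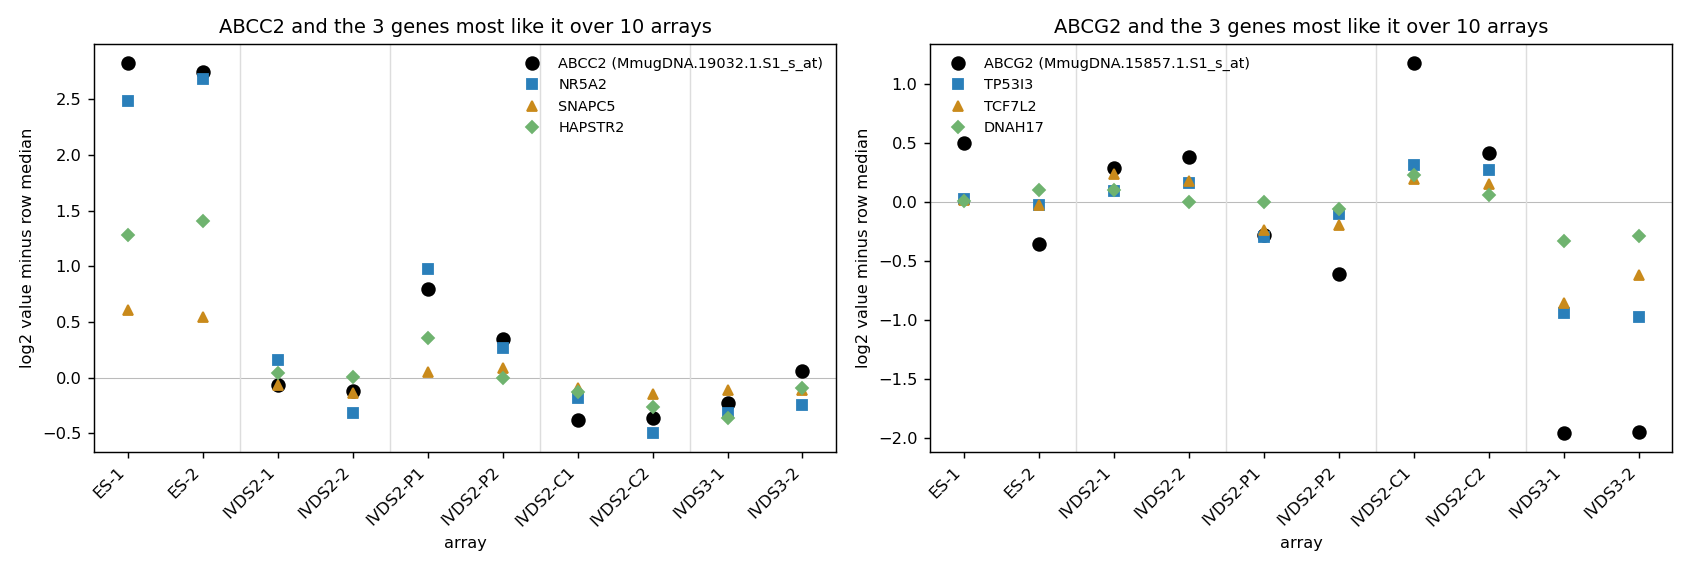
Values on each of the 10 arrays, in log2 units from the median, of the s_at probe sets of ABCC2 (left panel) and ABCG2 (right panel) and of the 3 genes with the highest Pearson r to each. ES arrays are high and all others low for ABCC2 and NR5A2 (r = 0.986), and the IVDS3 arrays are lowest for ABCG2 and TP53I3 (r = 0.956).

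At stage 3 more of the other ABC transporters rose than fell. Of 27 other ABC genes measured, 12 rose and 5 fell against ES cells (median 0.14, and -0.13 over all genes), where 21.1% of all genes were called higher and 28.6% lower. Leaving out ES replicate 2 gave 12 and 3, leaving out IVDS3 replicate 1 gave 8 and 3, and leaving out IVDS3 replicate 2 gave 7 and 4. Genes are the mean of their probe sets, with p-values adjusted over 13191 genes. The largest rise was in TAP1 (3.04 ± 0.36, adjusted p = 0.000146 in limma), which with TAP2 (0.85 ± 0.17, 0.00254) loads peptides for antigen presentation. Of the 2 probe sets of TAP2, 1 was called higher, and their differences were 0.12 and 1.59. ABCA12, a lipid carrier of the skin barrier, rose by 2.14 ± 0.21 (adjusted p = 5.69e-05 in limma), ABCA3, the surfactant lipid carrier of the lung, by 1.67 ± 0.19 (9.62e-05), ABCA10 by 1.06 ± 0.18 and ABCA5 by 1.03 ± 0.17. ABCC3 (MRP3), a basolateral exporter of organic anions in hepatocytes, rose by 1.14 ± 0.12 (adjusted p = 8.57e-05 in limma), with 3 of its 5 probe sets called higher and differences from -0.22 to 4.07 among them. ABCC4 (MRP4), another basolateral exporter, fell by 1.76 ± 0.18 (6.01e-05), and ABCA7, a close relative of ABCA1, by 0.80 ± 0.13 (0.000969).

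At stage 2 at most 4 of the other ABC genes were called in any group with all arrays. The counts against ES cells were 1 higher and 0 lower of 27 at IVDS2, where 6.5% of all genes were called higher and 6.23% lower, 2 and 2 in IVDS2-C, where 13.7% and 16.5% were, and 0 and 0 in IVDS2-P, where 6.31% and 4.67% were and where limma gave 1 and 2 at an unadjusted p under 0.05. They were ABCD2 at IVDS2 (1.14, adjusted p = 0.00423 in limma) and, in IVDS2-C, ABCA10 (1.24 ± 0.18), ABCA3 (0.85 ± 0.19), ABCB8 (-0.42 ± 0.12) and ABCC4 (-0.99 ± 0.18). The call of ABCA3 was lost without IVDS2-C replicate 2 (adjusted p = 0.0592 in limma), and that of ABCB8 without ES replicate 2, IVDS2-C replicate 1 or IVDS2-C replicate 2 (up to 0.166). Without ES replicate 1 the counts were 2 and 2 at IVDS2 and 1 and 3 in IVDS2-P. Those in IVDS2-C ran from 1 and 1 without IVDS2-C replicate 2 to 3 and 4 without ES replicate 1, and were 4 and 1 without ES replicate 2 and 3 and 1 without IVDS2-C replicate 1.

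**Figure D4:**
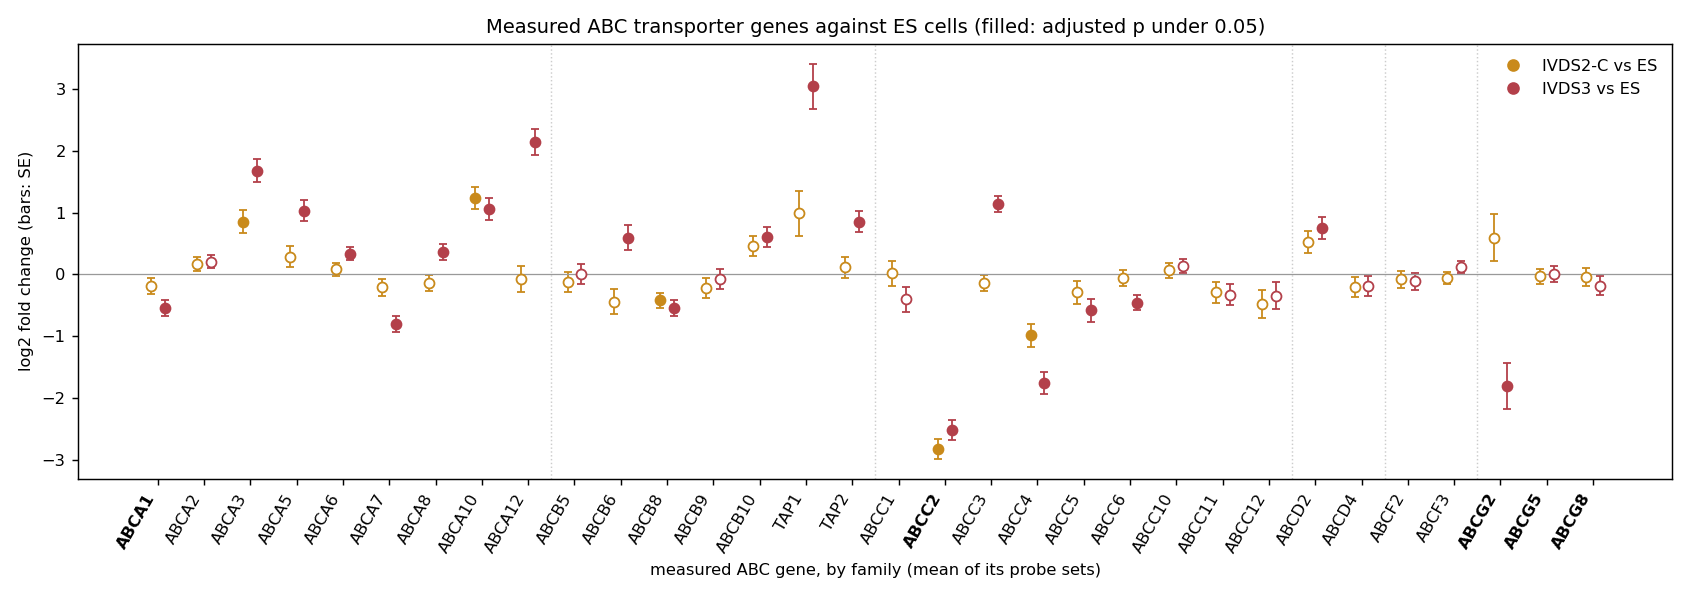
Log2 fold change of each measured ABC transporter gene (x axis, by family, the 5 members in bold) at IVDS3 and in IVDS2-C against ES cells, with bars of 1 SE from limma at gene level and filled points for called genes. At IVDS3, ABCC2 (-2.52), ABCG2 (-1.81) and ABCC4 (-1.76) lie lowest and TAP1 (3.04) and ABCA12 (2.14) highest.

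Among carriers of bile salts and organic anions in liver, a list that includes ABCC2, ABCG2, ABCG5 and ABCG8, 3 of 13 measured genes rose and 6 fell at IVDS3 against ES cells (median -0.37, and -0.13 over all genes, of which 21.1% were called higher and 28.6% lower). Those that fell included SLC47A1 (MATE1), an apical exporter of organic cations (-1.81 ± 0.20, adjusted p = 9.9e-05 in limma), beside ABCC2, ABCG2 and ABCC4. Those that rose were ATP8B1, a phospholipid flippase of the canalicular membrane (1.22 ± 0.15, 0.000204), ABCC3, and the uptake carrier SLCO2B1 (0.71 ± 0.13, 0.00185). In IVDS2-C, 1 rose and 3 fell (median -0.10, and -0.11 over all genes, of which 13.7% were called higher and 16.5% lower), and ATP8B1 (1.02 ± 0.15) and SLC47A1 (-1.51 ± 0.20) were again among them, with 2 rises without ES replicate 1. The bile salt export pump ABCB11, the phospholipid carrier ABCB4 and the uptake carrier SLC10A1 were not analysed here.

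Of 16 measured LXR receptors and targets, which include ABCA1, ABCG5 and ABCG8, 3 rose and 3 fell at IVDS3 (median -0.10), which is no more than the 21.1% and 28.6% of all genes (median -0.13). SMPDL3A, an LXR-induced phosphodiesterase, rose by 2.49 ± 0.17 (adjusted p = 7.85e-06 in limma), while NR1H3, which encodes LXR alpha, fell by 0.65 ± 0.14 (0.00418). LPL, lipoprotein lipase, fell by 0.59 ± 0.17, a call lost without ES replicate 2 or IVDS3 replicate 2 (up to 0.095). The receptor partners RXRA (0.60 ± 0.18) and RXRB (0.50 ± 0.17) rose, calls that were lost without IVDS3 replicate 1 among other arrays (up to 0.121 and 0.225). The list counted 2 higher and 5 lower without ES replicate 1, and 1 and 2 without IVDS3 replicate 1. NR1H2, which encodes LXR beta, was not called (-0.02, adjusted p = 0.91 in limma). MYLIP, an LXR target that degrades the LDL receptor, was not called at IVDS3 against ES cells (0.08, adjusted p = 0.678 in limma). It was lower in IVDS2-P than in ES cells (-0.77 ± 0.16, adjusted p = 0.0178 in limma), higher in the centre than in the periphery (0.79, 0.0176) and higher at IVDS3 than at IVDS2 (0.56, 0.0202), and each of these calls was lost without at least 1 array of its own groups (up to 0.0932, 0.121 and 0.148).

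Among genes of cholesterol synthesis and uptake, 5 of 17 rose and 1 fell at IVDS3 (median 0.26), where 21.1% of all genes were called higher and 28.6% lower (median -0.13), and the count of falls was 2 without ES replicate 1. CYP51A1 (1.59 ± 0.15, adjusted p = 4.42e-05 in limma) and PMVK (0.78 ± 0.10, 0.000194), both enzymes of the pathway, rose, as did SCAP (1.15 ± 0.14, 0.000147), the sterol sensor that escorts SREBP, and TM7SF2 (0.76 ± 0.18, 0.00667), a sterol reductase whose call was lost without IVDS3 replicate 1 (0.0533). DHCR7, which makes cholesterol in the last step of 1 branch of the pathway, fell by 0.63 ± 0.14 (0.0046). In IVDS2-C, 7 rose and 1 fell (median 0.36, and -0.11 over all genes), where 13.7% and 16.5% of all genes were called. The counts were 2 and 0 without IVDS2-C replicate 2, and the call of INSIG1, the largest rise among them (1.81 ± 0.41, adjusted p = 0.0112 in limma), was lost without that array (0.077). SREBF1 and SREBF2, which encode the SREBP factors, were not called at IVDS3 (0.25, adjusted p = 0.11, and -0.13, adjusted p = 0.546 in limma).

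Of 13 genes of sterol and HDL handling, 3 rose and 3 fell at IVDS3 (median -0.07). Over all genes 21.1% were called higher and 28.6% lower (median -0.13). The rises, and most of the falls, lost their calls without IVDS3 replicate 1. The call held whichever array was left out for NPC2 (-1.28 ± 0.15, adjusted p = 0.000111 in limma), which moves cholesterol out of lysosomes. APOA1, the acceptor of ABCA1's lipid, fell by 1.84 ± 0.55 (0.0215), a call lost without ES replicate 1 or IVDS3 replicate 1 (up to 0.137). In IVDS2-C, 4 rose and 2 fell (median -0.13), where 13.7% of all genes were called higher and 16.5% lower (median -0.11). Fewer rises were called whichever single array was left out, and fewer falls without IVDS2-C replicate 2 or ES replicate 2. NPC1, the membrane partner of NPC2, rose in IVDS2-C by 1.06 ± 0.19 (adjusted p = 0.00405 in limma).

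Of 14 nuclear receptors and other sensors that act on transporter genes, 4 rose and 2 fell at IVDS3 (median 0.03), where 21.1% of all genes were called higher and 28.6% lower (median -0.13), and 2 rose without ES replicate 2 or IVDS3 replicate 1. EPAS1, a hypoxia-inducible factor, rose by 4.42 (adjusted p = 5.95e-06 in limma) and PPARG, the adipocyte and trophoblast receptor, by 1.75 ± 0.15 (2.37e-05), while NR5A2 and NR1H3 fell. NR1I3 (CAR), a xenobiotic receptor, rose by 0.41 (0.0137), and the call was lost without ES replicate 2, IVDS3 replicate 1 or IVDS3 replicate 2 (up to 0.0635). The xenobiotic receptor NR1I2 (PXR, 0.02), the bile acid receptor NR1H4 (FXR, 0.03), PPARA (0.08) and NFE2L2 (NRF2, 0.37, adjusted p = 0.0776 in limma) were not called. In IVDS2-C, 1 rose and 2 fell (median -0.15), where 13.7% of all genes were called higher and 16.5% lower (median -0.11). The counts of the list changed without IVDS2-C replicate 1. AHR was not analysed here.

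Among 9 measured NRF2 targets, which include ABCC2 and ABCG2, 2 rose and 4 fell at IVDS3 (median -0.04), again beside 21.1% and 28.6% of all genes, and ABCC2 and ABCG2 were themselves among the falls. ME1, malic enzyme, rose by 3.18 (adjusted p = 6.66e-06 in limma) and TALDO1 by 0.59 (0.00307), and both subunits of glutamate-cysteine ligase fell, GCLC by 0.76 (0.000381) and GCLM by 0.52 (0.00436). In IVDS2-C, 2 rose and 3 fell (median 0.19), where 13.7% of all genes were called higher and 16.5% lower (median -0.11). SLC7A11, the cystine carrier, was 2.24 ± 0.25 higher there, and fewer falls were called without IVDS2-C replicate 2. Of 15 apical membrane and tight junction genes, 5 rose and 4 fell at IVDS3 (median -0.02), beside 21.1% and 28.6% of all genes. RAB25 (4.35 ± 0.28) and MYO5B (4.12 ± 0.27), which carry vesicles to the apical surface, rose, and so did EZR (1.51 ± 0.19), while MSN fell (-1.02 ± 0.19). PDZK1, a scaffold that binds ABCC2 and other apical carriers, fell by 0.78 ± 0.20 (adjusted p = 0.00998 in limma), a call lost without ES replicate 1 or IVDS3 replicate 1 (up to 0.0816). Beside 13.7% of all genes called higher and 16.5% lower in IVDS2-C, 4 apical genes rose and 1 fell there (median 0.04). Without ES replicate 1 they were 2 and 2, without IVDS2-C replicate 2 they were 2 and 0, and the fall was also lost without IVDS2-C replicate 1 or either IVDS2 replicate.

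Markers of several cell types moved with the groups. Their counts at IVDS3 stand beside 21.1% of all genes called higher and 28.6% lower there against ES cells. The mean of 9 pluripotency genes was 1.24 and 1.42 on the ES arrays, between -1.12 and 0.70 at stage 2, and -2.07 and -1.95 at IVDS3. In IVDS2-P it was 0.70 and 0.53, and in IVDS2-C -0.24 and -1.12. At IVDS3, 7 of these genes fell and 1, NANOG, rose (1.48 ± 0.19, adjusted p = 0.00026 in limma over genes). NANOG was also higher than in ES cells in IVDS2-C (1.30 ± 0.19, adjusted p = 0.00151 in limma over genes). For 12 trophoblast genes the mean was -1.57 and -1.26 in ES cells, -1.05 and -0.88 in IVDS2-P, 0.61 and 0.67 in IVDS2-C and 0.60 and 0.72 at IVDS3, where 7 rose and 2 fell. All 9 genes of stratified epithelium rose at IVDS3 (means 3.52 and 3.26, against -0.78 and -0.81 in ES cells), and of 10 fibroblast genes 6 rose and 2 fell. The 2 falls of the trophoblast and of the fibroblast list were 1 without ES replicate 2, IVDS3 replicate 1 or IVDS3 replicate 2, and for fibroblasts also without ES replicate 1. Their part in the values of ABCC2, ABCG2 and ABCA1 was not tested.

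Of all genes, 21.1% were called higher and 28.6% lower at IVDS3 against ES cells, and 13.7% and 16.5% in IVDS2-C. Beside these shares, hepatocyte markers were called in both directions. Their mean over 14 measured genes was 0.55 on IVDS2 replicate 2 but 0.02 on IVDS2 replicate 1. On the other arrays it lay between -0.09 and 0.15. At IVDS3 2 of the genes rose and 4 fell, and these counts changed when any ES or IVDS3 array was left out. Among them AMBP rose by 1.76 ± 0.20 (adjusted p = 9.78e-05 in limma) and AFP fell by 0.64 ± 0.12 (0.0022). In IVDS2-C 3 rose and 2 fell (median -0.18, and -0.11 over all genes). VTN (0.90 ± 0.26, adjusted p = 0.0312 in limma), AMBP (0.61 ± 0.20, 0.0429) and G6PC1 (0.45 ± 0.11, 0.0158) were higher, and RBP4 (-0.51 ± 0.11, 0.00727) and TAT (-0.41 ± 0.13, 0.036) were lower. Without ES replicate 2 or IVDS2-C replicate 2 these counts were 0 and 1, without ES replicate 1 they were 1 and 1, and without any other single array but the IVDS2 replicates they were 2 and 1. For cells that carry the members elsewhere, counts at IVDS3 likewise stand beside 21.1% of all genes called higher and 28.6% lower. There were 1 rise and 3 falls of 11 enterocyte genes, and 0 of 7 proximal tubule genes called by limma (1 higher and 1 lower at an unadjusted p under 0.05). Macrophage genes gave 3 rises and 2 falls of 7, with 2 falls among 5 erythroid genes and 3 falls among 8 endothelial genes. Most of these counts changed with the array left out: the macrophage falls were 0 without any 1 array other than ES replicate 1, the proximal tubule genes gave 1 rise and 3 falls without ES replicate 1 and 1 fall without ES replicate 2, and the endothelial falls were 1 without IVDS3 replicate 2. The enterocyte counts went to 0 and 2 when IVDS3 replicate 1 was left out, to 1 and 1 when IVDS3 replicate 2 was, and the erythroid falls to 0 without IVDS3 replicate 2 and to 1 without ES replicate 2, IVDS3 replicate 1 or either IVDS2 replicate. These lists, too, give differences only, so no marker can be said to be absent.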

How the data were processed

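RNA of 10 samples was measured on Affymetrix rhesus macaque arrays, from 6 µg of total RNA per labelling reaction per the labels. The authors deposited RMA values on a log2 scale; RMA is named in the submitters' processing notes without a version. The base was inferred: read as natural logs, the largest range of a probe set, 9.51, would come to 13.7 in log2. In the deposited log2 values every probe set was centred on its median over the 10 arrays (largest remaining median 5e-07), so background and absolute level cannot be read, and precision is limited by 2 arrays per group.

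The 84 control probe sets were removed. Of 44210 tested, 22802 were assigned to 1 gene, 316 to several and 21092 to none by the platform annotation, and 22507 of the 22802 were matched to RefSeq by gene number with 0 symbols changed. The gene number given for ABCA1 was not matched, so its symbol is the annotation's. No member sequence was used here, and planned promoter motifs were not counted.

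The 10 arrays entered a single group-means fit with limma 3.58.1 (R 4.3.3; 5 residual and 4.33 prior degrees of freedom), with Benjamini-Hochberg adjustment within a comparison over 44210 probe sets or 13191 genes (mean of a gene's probe sets). The fit was run on simulated data of 44210 probe sets, with 100 changed 2-fold and 100 changed 4-fold. For IVDS3 and IVDS2-C against ES cells it recovered 52% and 48% of the 2-fold changes. It recovered 98% and 96% of the 4-fold changes, and 6.25% and 5.88% of its calls were false. The simulated noise was normal, independent between probe sets and of equal spread in all groups, whereas the real ES replicates varied more than the others. Far fewer probe sets changed in it than the 37.8% and 21.5% called in the data. These rates therefore need not hold for the real comparisons. Named genes are all members, up to 4 called genes in each direction of each list at IVDS3 or in IVDS2-C by size of change, the 3 genes most like each called member, and the fixed regulators described here; the others named (ABCD2, SREBF1, SREBF2, MYLIP, ABCB11, ABCB4, SLC10A1) were chosen after values were seen. The members and lists were chosen with earlier results of these data known. Same-numbered replicates were not treated as pairs, although the deviations of same-numbered arrays had correlations of up to 0.254 between groups. Alternatives were array centring, only the arrays compared, a replicate block, only 1-gene probe sets, robust moderation, other summaries of a gene's probe sets, and leaving out each array.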

Additional observations from a re-analysis of the deposited data

How the results depend on the processing

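The differences of the members were recomputed under 17 alternatives, which gave 714 values. Of these 654 kept direction and side of the threshold, 28 lost and 3 gained the call, and 29 changed sign, all of them values that were not called. With 2 arrays per group a missed call does not show that groups were alike, and centred values give no level of expression. Quantile normalization, an intensity trend and a filter on dim probe sets were not run, because the values were centred.

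The replicate numbers shared by the groups were also used as a block. The deviations of same-numbered arrays had correlations from -0.119 to 0.254 over 10 pairs of groups, 5 of them over 0.1. The numbers were not taken to pair samples, and whether same-numbered arrays share an effect was not tested. With the replicate block 4279 probe sets were called for IVDS2 against ES cells, 10090 for IVDS2-C, 3826 for IVDS2-P and 17183 for IVDS3, 3090 for centre against periphery and 13191 for IVDS3 against IVDS2, and no count of called members changed.

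With only the 4 arrays compared, 2115 probe sets were called for IVDS2 against ES cells (3851 with all arrays), 5248 for IVDS2-C (9507), 1514 for IVDS2-P (3339) and 1685 for centre against periphery (2582), where 1 member was called in place of 3. With only probe sets of 1 gene, fewer of which were tested, 2214 were called for IVDS2-P and 10868 for IVDS3 (16708 among all probe sets). Leaving out each array gave 1757 to 5648 for IVDS2, 4263 to 10982 for IVDS2-C, 818 to 7423 for IVDS2-P, 12019 to 18083 for IVDS3, 684 to 3418 for centre against periphery and 7899 to 14517 for IVDS3 against IVDS2 (12639). Called members then numbered 2 to 3 for IVDS2-C, 3 to 5 for IVDS3, 0 to 3 for centre against periphery and 1 to 3 for IVDS3 against IVDS2. The lowest count for centre against periphery was that without IVDS2-P replicate 1.

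Signs turned as follows when arrays were left out, and the cause was not tested. Against ES cells, at IVDS2 the range was -0.13 to 0.0973 for ABCA1, -0.50 to 0.90 and -0.16 to 0.69 for the ABCG2 probe sets, -0.0435 to 0.169 for ABCG5 and -0.24 to 0.21 for ABCG8. In IVDS2-C it was -0.24 to 1.16 for Mmu.1351.1.S1_at of ABCG2, -0.117 to 0.0483 for ABCG5 and -0.268 to 0.185 for ABCG8. In IVDS2-P it was -1.25 to 0.15 for Mmu.1351.1.S1_at and -0.408 to 0.0461 for ABCG8, and at IVDS3 -0.12 to 0.12 for ABCG5 and -0.409 to 0.0446 for ABCG8. Centre against periphery ran from -0.15 to 0.0829 for ABCA1, and IVDS3 against IVDS2 from -0.181 to 0.0941 for Mmu.10581.1.S2_at and -0.14 to 0.15 for MmugDNA.19032.1.S1_s_at of ABCC2, and -0.18 to 0.0567 for ABCG5. With each array centred on its median, ABCG8 at IVDS2 was 0.0016, ABCG5 in IVDS2-C 0.0063 and Mmu.10581.1.S2_at between IVDS3 and IVDS2 0.0040. With other summaries of a gene's probe sets, the ABCC2 values between IVDS3 and IVDS2 were -0.0176 (mean of both) and 0.0085 (the more variable).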
